A study of Homo sapiens with 4 samples.

Results

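Laminins, collagens, integrins and their partners in the extracellular matrix were examined in TOP3B knockout (KO) cells and wild-type (WT) cells of HCT116, a human colon carcinoma line. The KO cells were the E2-4 line, made by CRISPR with a guide against exon 2 of TOP3B, which encodes a topoisomerase of both DNA and RNA. The WT cells were wild-type HCT116. Both were grown under 1 protocol with no treatment named in the labels, and each gave 2 libraries of ribosome-depleted total RNA. The KO is 1 line, and nothing states that the libraries of a group are from different cultures, so genotype and line cannot be told apart. The p-values cover the spread between these libraries, which may be technical.

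Genes were taken by symbol from the 35820 rows of the count table: the laminin chains (LAMA, LAMB, LAMC), the collagen chains (COL), symbols of the form ITGA or ITGB, and 15 further names (DDR1, DDR2, ITGBL1, VCAN, HSPG2, AGRN, NID1, NID2, the 4 syndecans SDC1 to SDC4, THBS1, SPARC and TNC). 98 names matched. A gene was kept when at least 1 library held 10 estimated counts. This used the same counts as the comparison, and the names were chosen with earlier results of these data known. 17 names were at 0 in every library and 25 had 1 to 9 counts at most, which left 56 genes: 10 laminin chains, 18 collagen chains, 11 integrin alpha chains, 4 integrin beta chains, 3 integrin-binding proteins that share the ITGB spelling (ITGB1BP1, ITGB1BP2, ITGB3BP), and 10 other matrix proteins and receptors. Just inside the minimum were COL10A1 and ITGA2B with a highest count of 10, and COL17A1 and COL28A1 with 11. Just outside were ITGA7 with 6 and 9 counts in KO against 7 and 8 in WT, and SPARC with 0 and 2 in KO against 3 and 7 in WT. COL17A1, DDR2 and LAMA4 reached the minimum only in KO libraries, and COL10A1, ITGA9 and LAMA3 only in WT libraries.

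Laminins are trimers of an alpha, a beta and a gamma chain that polymerise into the base of the basement membrane. Type IV collagen forms a second network there, which perlecan (HSPG2), agrin (AGRN) and nidogens join to the laminin layer, while fibrillar and fibril-associated collagens build the stroma. Integrins are dimers of an alpha and a beta chain that bind these proteins from the cell surface. Syndecans are co-receptors that carry heparan sulfate, and the discoidin domain receptors DDR1 and DDR2 are tyrosine kinases that respond to collagen. In colon epithelium, alpha6 beta4 integrin and laminins with the alpha3 chain anchor cells through hemidesmosomes.

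DESeq2 called 5 of the genes between KO and WT, LAMA4, DDR2, VCAN and COL12A1 as higher in KO and ITGBL1 as lower, and their promoter windows are shown for that reason. The windows, from RefSeq on GRCh38.p14, run from 250 bases before the annotated start to 50 bases from the start on. They are printed 5′ to 3′ on the gene's strand, in lower case, with matches to 6 motifs in capitals.
LAMA4, chr6:112254518-112254817, minus strand: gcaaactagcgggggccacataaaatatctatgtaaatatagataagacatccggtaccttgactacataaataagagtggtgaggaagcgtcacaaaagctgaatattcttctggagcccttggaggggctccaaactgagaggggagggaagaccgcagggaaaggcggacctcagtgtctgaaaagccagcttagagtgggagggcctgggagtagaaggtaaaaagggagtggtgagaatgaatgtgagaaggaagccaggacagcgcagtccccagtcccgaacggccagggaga
DDR2, chr1:162630613-162630912, plus strand, the first of 3 listed starts: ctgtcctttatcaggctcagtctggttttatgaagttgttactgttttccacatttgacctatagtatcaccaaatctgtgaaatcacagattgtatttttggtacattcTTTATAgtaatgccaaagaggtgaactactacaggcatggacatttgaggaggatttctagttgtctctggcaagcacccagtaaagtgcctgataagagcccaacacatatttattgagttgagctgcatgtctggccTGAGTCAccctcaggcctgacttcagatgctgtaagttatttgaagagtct
VCAN, chr5:83471494-83471793, plus strand: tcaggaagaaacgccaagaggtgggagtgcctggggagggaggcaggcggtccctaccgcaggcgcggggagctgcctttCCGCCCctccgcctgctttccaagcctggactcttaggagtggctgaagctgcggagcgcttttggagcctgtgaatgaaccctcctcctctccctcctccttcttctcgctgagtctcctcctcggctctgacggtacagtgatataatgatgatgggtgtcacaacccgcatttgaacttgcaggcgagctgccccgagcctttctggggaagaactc
COL12A1, chr6:75206004-75206303, minus strand: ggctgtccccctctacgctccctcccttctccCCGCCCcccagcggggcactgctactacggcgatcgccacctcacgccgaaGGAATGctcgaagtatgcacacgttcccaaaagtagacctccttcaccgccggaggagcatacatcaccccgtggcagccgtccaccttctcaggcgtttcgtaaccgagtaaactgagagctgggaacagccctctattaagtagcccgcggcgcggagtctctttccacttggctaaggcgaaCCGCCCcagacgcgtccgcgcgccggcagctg
ITGBL1, chr13:101452425-101452724, plus strand: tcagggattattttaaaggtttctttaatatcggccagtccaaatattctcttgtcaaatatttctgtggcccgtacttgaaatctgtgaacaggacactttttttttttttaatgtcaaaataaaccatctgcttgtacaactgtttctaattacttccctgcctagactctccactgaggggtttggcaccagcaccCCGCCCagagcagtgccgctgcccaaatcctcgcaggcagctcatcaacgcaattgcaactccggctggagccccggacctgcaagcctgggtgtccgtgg

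The motifs were searched on both strands as TATAAA for the TATA box, as CCAAT for the CCAAT box, as GGGCGG for the GC box, as TGANTCA for the AP-1 site, as GGAATG for the TEAD site and as CACGTG for the E-box. Among 35116 windows of this length over all genes, 11.5%, 34.6%, 45%, 7.71%, 14% and 7.26% held them, in that order. The COL12A1 window held a GC box at positions -218 and 19 from the start and a TEAD match at -167. DDR2 held a TATA match at -140 and an AP-1 match that begins at -1. A GC box stood at -170 in VCAN and at -51 in ITGBL1, and none of the 6 was found in the LAMA4 window. A match of this length is a description of the letters and not a site. The windows differed in base composition: GC content was 63.3% in COL12A1 and 60.3% in VCAN, 51.3% in LAMA4, 47.7% in ITGBL1 and 41% in DDR2, against a median of 58.7% over all windows. CpG pairs numbered 29 in COL12A1, 15 in VCAN, 9 in ITGBL1, 8 in LAMA4 and 0 in DDR2, against a median of 14.

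The KO libraries held 10450048 and 16143634 estimated counts and the WT libraries 15141919 and 11750516. A count of 0 allows up to 3 counts, or 0.176 to 0.271 CPM (counts per 1000000 after scaling by library size times the TMM factor), as counting error only. WT replicate 1 stood apart with a TMM factor of 0.858, against 1.04 to 1.06 in the other 3 libraries. Colon epithelial markers were present (EPCAM, CDH1, KRT8, KRT18, KRT19), while the differentiation markers KRT20 and VIL1 had 0 to 1 counts. The 9 epithelial markers in the table summed to 1522 and 1452 CPM in KO and to 2584 and 2117 CPM in WT. KRT19 carried most of this gap: without it the other 8 summed to 316.3 and 368.7 CPM in KO and to 341.0 and 372.6 CPM in WT. EPCAM, at 89.9 and 88.2 CPM in KO and 138.5 and 93.2 in WT, also had both KO libraries lower. So did CDH1, at 12.9 and 10.6 CPM in KO and 23.6 and 16.2 in WT. KRT8 overlapped, and so did KRT18, at 97.7 and 136.0 CPM in KO and 59.0 and 116.7 in WT. CDX2, the intestinal transcription factor, had 56 and 0 counts in KO and 46 and 44 in WT. The part of these markers in the results was not tested. Summed markers of fibroblasts stood at 0.633 and 1.23 CPM in KO and at 1.31 and 1.80 CPM in WT, with PDGFRA, LUM, THY1, FAP and COL3A1 at 0 in all 4 libraries. Endothelial markers reached at most 0.0904 CPM in a library, with VWF, KDR and CLDN5 at 0, and smooth muscle markers at most 0.308 CPM. Leukocyte markers summed to 1.29 to 1.45 CPM in KO and 1.23 to 3.08 CPM in WT, with PTPRC and CD3E at 0. CD68 held most of this sum. It had 16 and 21 of the 16 and 22 leukocyte marker counts in KO, and 34 and 15 of the 40 and 15 in WT. TOP3B had 43.9 and 54.7 CPM in KO and 57.1 and 66.5 CPM in WT (log2 fold change -0.32, SE 0.17; edgeR adjusted p = 0.522). As an indel in exon 2 need not remove the RNA, the genotype is not checked by this.

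As a group, the matrix and adhesion genes were split evenly between higher and lower. 50 of the 56 passed edgeR's filter on low counts, and 24 of these had a positive and 26 a negative log2 fold change of KO over WT. Their median was -0.03, against -0.01 over all 12269 tested genes. The summed level of the 56 genes was 2077 and 2014 CPM in KO libraries and 1876 and 1862 CPM in WT libraries. Abundant genes weigh most in such a sum. The mean of COL12A1 was 302.5 CPM in KO and 197.7 CPM in WT, and that of VCAN 120.2 and 65.2 CPM. That of ITGAV went the other way, at 67.2 CPM in KO and 93.2 CPM in WT. In bulk RNA, fewer cells that express a gene and less RNA per cell cannot be told apart.

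edgeR's quasi-likelihood test, adjusted over all genes, called 0 of the 50, with a background of 0.00815% of tested genes, which is NRIP1 alone. At an unadjusted p under 0.05 it gave 9 of the 50, 5 higher and 4 lower, which is 18% against 11.2% of all tested genes. The higher ones included COL12A1, DDR2, LAMA4 and VCAN, and the 4 lower were COL18A1, HSPG2, ITGAV and ITGBL1. DESeq2 called 5 of the 55 for which it gave an adjusted p, 4 higher and 1 lower, which is 9.09% against 1.38% of all genes. DDR2, ITGBL1 and VCAN were named individually in the selection with earlier results known, and DDR2 and LAMA4 passed the count minimum only through KO libraries, so these shares are descriptions. In 13 of the 50 both KO libraries exceeded both WT libraries, against 23.5% of all tested genes. In 13 others both lay below, against 23.5% of all tested genes, and in 24 the groups overlapped. At 26% in each direction, the members were close to the background. With 2 libraries against 2, an exact two-sided permutation test of a single gene cannot go below p = 0.333.

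**Figure D1:**
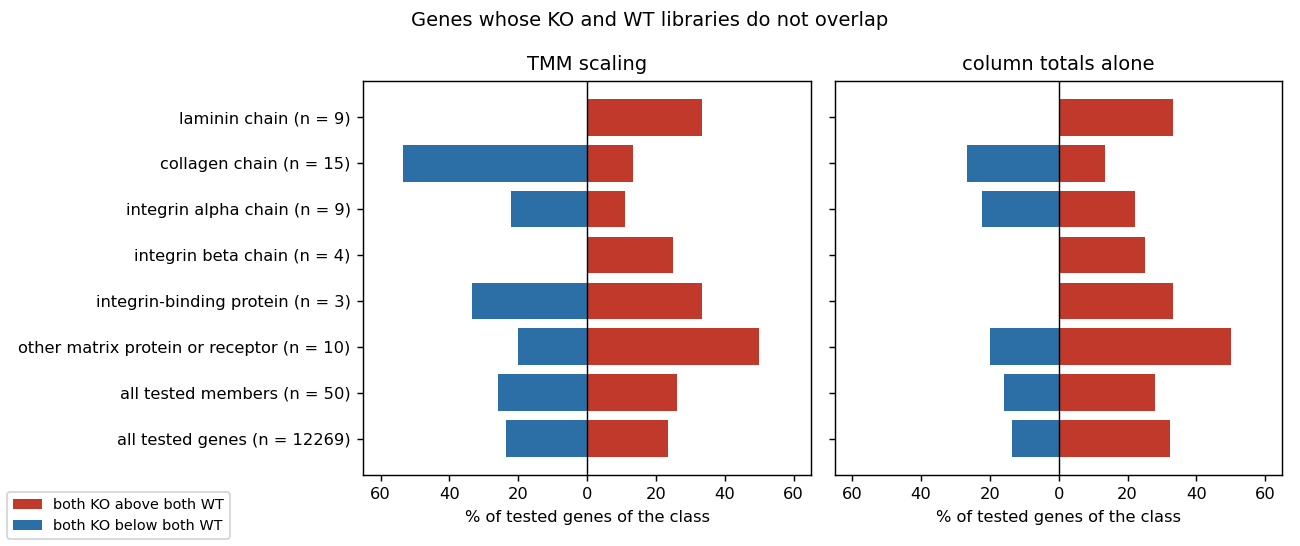
Share of tested genes in each class whose KO libraries both lay above (right, red) or both below (left, blue) both WT libraries, in percent, under TMM scaling (left panel) and column totals alone (right panel). Under TMM the collagen chains had 8 of 15 below, and the other matrix proteins and receptors 5 of 10 above, against 23.5% of all tested genes in each direction. The other matrix proteins and receptors were named individually with earlier results known.

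The spread between the libraries of a group was wide for many of these genes. The 2 KO libraries differed by more than 2-fold in 11 of the 50, against 9.64% of all tested genes, and the 2 WT libraries did in 12, against 11.5%. On the scale of log2(CPM + 0.5), the difference of the group means exceeded the larger replicate gap in 21 of the 50 (42%), against 31.7% of all tested genes. SDC1, a syndecan of epithelial cells, had 247 and 103 counts in KO and 170 and 116 in WT, so its KO libraries lay on both sides of the WT libraries. COL11A2 had 2 and 65 counts in KO and 0 and 10 in WT. LAMC3 had 20 and 0 counts in KO and 12 and 0 in WT.

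**Figure D2:**
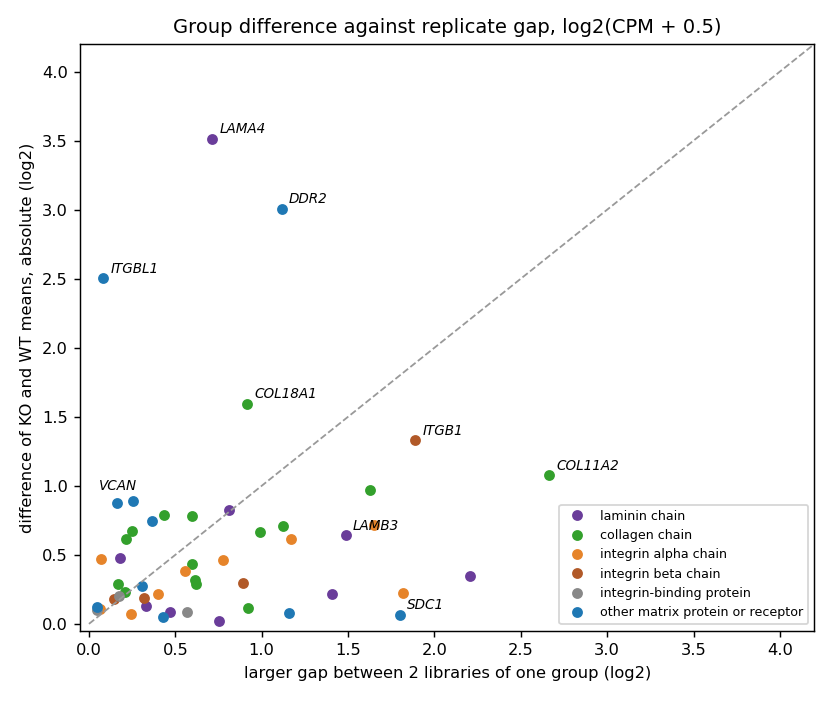
Absolute difference of the KO and WT means (vertical axis) against the larger gap between 2 libraries of one group (horizontal axis) for the 50 tested genes, both on the log2(CPM + 0.5) scale, coloured by class. The dashed line marks equality, and 21 genes lie above it, with LAMA4, DDR2 and ITGBL1 highest.

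Among the laminin chains LAMA4 was the 1 that DESeq2 called, and it was higher in KO. This is 10% of the 10 chains, against 1.38% of all genes, and it rests on 1 gene. Of the 9 tested chains 7 had a positive log2 fold change and 2 a negative one, with a median of 0.49. Both KO libraries exceeded both WT libraries for 3 (33.3%), LAMA4 and LAMA1 among them, and lay below them for 0, against 23.5% of all tested genes in each direction. The groups overlapped in the other 6. With column totals in place of TMM the 3 stood against 32.4% of all tested genes, close to the background, and the laminin median was 0.65, on a scale that moved the median of all genes to 0.14. The median was 0.27 to 0.56 when each library was left out in turn, and without KO replicate 1 the signs were 5 positive and 3 negative.

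LAMA4, the alpha4 chain found in basement membranes of vessels, muscle and fat, had 82 and 189 counts in KO and 2 and 7 in WT, or 7.41 and 11.1 CPM in KO and 0.154 and 0.573 CPM in WT. The KO libraries were both high, the WT libraries held few counts, and the groups did not overlap. The means were 9.25 ± 2.61 CPM in KO and 0.364 ± 0.296 CPM in WT (SD, n = 2 each), a 25.4-fold difference. On the log2 scale this was 4.65 (SE 0.63), with adjusted p-values of 0.246 in edgeR and 2.94e-06 in DESeq2. Without WT replicate 2, edgeR called it too (adjusted p = 0.0117), and without KO replicate 2 DESeq2 gave an adjusted p of 0.173. The log2 fold change was 4.00 without WT replicate 1 and 5.84 without WT replicate 2. Of the 5 endothelial markers in the table, VWF, KDR and CLDN5 were at 0 in all 4 libraries. CDH5 had 0 and 0 counts in KO and 1 and 1 in WT, and TEK had 1 and 0 in KO and 0 and 0 in WT. The alpha4 chain is known to form trimers with a beta1 or beta2 chain and gamma1. LAMB1, the beta1 chain, was listed at 0 in all 4 libraries. P4HB, a protein disulfide isomerase that most cells use, was also listed at 0 in all 4, so the 0 of LAMB1 is uncertain. LAMB2, the beta2 chain, was detected in all 4 libraries, and LAMC1, the gamma1 chain, had 7.14 and 5.93 CPM in KO and 8.48 and 4.83 CPM in WT. LAMC1 thus overlapped, with a log2 fold change of -0.03 (SE 0.37; edgeR adjusted p = 0.979), and the value was 0.16 with column totals and 0.43 without WT replicate 1.

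LAMA5, the main alpha chain of adult epithelial basement membranes, had the highest laminin level per length of transcript. It stood at 163.7 and 130.1 CPM in KO and 122.2 and 145.8 CPM in WT. Its groups overlapped (log2 fold change 0.13, SE 0.17; edgeR adjusted p = 0.765), and without KO replicate 1 the value was -0.04. LAMB2, the beta2 chain, had 20.9 and 29.1 CPM in KO and 24.5 and 28.1 CPM in WT, also overlapping (log2 fold change -0.07, SE 0.22, and 0.08 with column totals). LAMB3, the beta3 chain, had 50 and 231 counts in KO and 77 and 49 in WT, with KO replicate 2 alone high, and LAMA3, the alpha3 chain, had 0 and 5 counts in KO and 2 and 16 in WT. LAMA1, the alpha1 chain of early embryonic basement membranes, had 44 and 72 counts in KO and 19 and 36 in WT, with a log2 fold change of 0.90 (SE 0.46; edgeR adjusted p = 0.517).

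**Figure D3:**
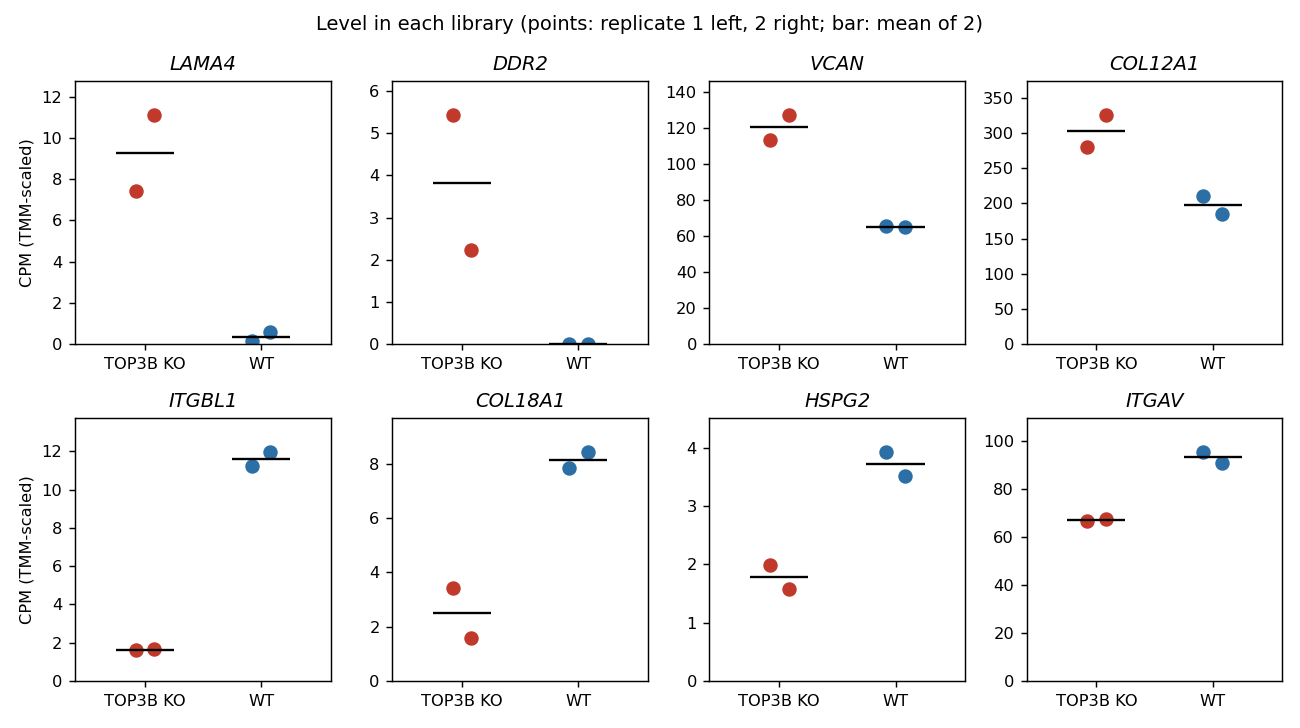
CPM in each library for 8 named genes, KO left and WT right in each panel, with points for replicates 1 and 2 and a bar for their mean. The KO points lie above the WT points for LAMA4, DDR2, VCAN and COL12A1, and below for ITGBL1, COL18A1, HSPG2 and ITGAV.

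Most collagen chains had lower estimates in KO, while COL12A1, the most abundant per length of transcript, was higher. Of the 43 collagen names 18 reached the count minimum and 15 were tested. Their median log2 fold change was -0.43, with 4 positive and 11 negative. The KO pair lay wholly below the WT pair in 8 of the 15 (53.3%) and above in 2 (13.3%), COL12A1 and COL8A1, against 23.5% of all tested genes in each direction. With column totals the 8 became 4 (26.7%), against 13.4% of all tested genes on that scale, and the median became -0.30. The median ran between -0.20 and -0.80 when each library was left out, with the first value without WT replicate 2 and the second without KO replicate 2. Of the tested chains COL12A1 and COL27A1 alone exceeded 10 CPM in all libraries, so most of these fold changes rest on few counts.

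COL12A1, a fibril-associated collagen that lies on the surface of collagen I fibrils, had 279.8 and 325.3 CPM in KO and 210.8 and 184.5 CPM in WT. The groups did not overlap, and the means were 302.5 ± 32.2 CPM in KO and 197.7 ± 18.6 CPM in WT (SD, n = 2 each), a 1.53-fold difference. The log2 fold change was 0.61 (SE 0.14), with adjusted p-values of 0.304 in edgeR and 0.0409 in DESeq2. The DESeq2 call was not made without KO replicate 1 (adjusted p = 0.746) or without KO replicate 2 (adjusted p = 1.00). COL27A1, a fibrillar collagen of cartilage, was the next per length, at 10.5 and 11.9 CPM in KO and 13.8 and 13.7 CPM in WT (log2 fold change -0.30, SE 0.21; edgeR adjusted p = 0.594). COL8A1, a short-chain collagen, had 33 and 64 counts in KO and 8 and 36 in WT. The fibrillar chain COL1A1 had 7 and 21 counts in KO and 12 and 20 in WT, and COL1A2, its partner in type I collagen, and COL3A1 were listed at 0 in all 4 libraries.

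Of the collagens of the basement membrane zone described here, those tested by edgeR had lower estimates in KO, and COL17A1 alone had a higher one. Of them 0 was called by edgeR or DESeq2, and DESeq2 called 1.38% of all genes. COL17A1, the transmembrane collagen of hemidesmosomes, had 10 and 11 counts in KO and 3 and 2 in WT, too few for edgeR's filter (DESeq2 log2 fold change 1.97, SE 1.61; adjusted p = 0.890). COL18A1, the precursor of endostatin, had 3.43 and 1.59 CPM in KO and 7.86 and 8.43 CPM in WT. The KO libraries were more than 2-fold apart, and both lay below the close WT pair. Its log2 fold change was -1.72 (SE 0.45), with adjusted p-values of 0.349 in edgeR and 0.170 in DESeq2. The value was -2.35 without KO replicate 1 and -1.24 without KO replicate 2. COL18A1 shares exon bases with SLC19A1 on the opposite strand, which had 223 and 209 counts in KO and 263 and 256 in WT, and whether counting used strand is not given in the sources used here. COL4A5 and COL4A6, type IV collagen chains whose genes lie head to head on chromosome X, also had their KO pair below the WT pair: COL4A5 had 13 and 30 counts in KO and 35 and 37 in WT, and COL4A6 had 25 and 46 in KO and 50 and 57 in WT. Their log2 fold changes were -0.95 (SE 0.42) and -0.77 (SE 0.35), with edgeR adjusted p-values of 0.485 and 0.488. COL4A1 had 0 and 0 counts in KO and 2 and 3 in WT, and COL4A2 was listed at 0 in all. COL7A1, which forms the anchoring fibrils below the basement membrane, had 4.97 and 4.23 CPM in KO and 5.47 and 5.49 CPM in WT. COL6A1 and COL6A2, chains of the beaded filament collagen VI, lie on chromosome 21 as COL18A1 does. COL6A1 had 15 and 14 counts in KO and 16 and 40 in WT, and COL6A2 had 11 and 30 in KO and 26 and 24 in WT. The 109 tested genes of chromosome 21 had a median log2 fold change of 0.02.

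Of the integrin alpha chains none was called by edgeR or DESeq2 with all 4 libraries. DESeq2 called 1.38% of all genes, so 0 of 11 chains is close to the background. Of 9 tested alpha chains 2 had a positive and 7 a negative log2 fold change, with a median of -0.47. This median was -0.31 with column totals. It ran between -0.18 and -0.46 when each library was left out, with the first value without WT replicate 2. The KO pair lay wholly below the WT pair for 2 (22.2%, ITGA3 and ITGAV) and above for 1 (11.1%, ITGAE), against 23.5% of all tested genes in each direction, so the lower count was close to the background. ITGAV, the alphaV chain that pairs with several beta chains to bind vitronectin and fibronectin, had 66.9 and 67.5 CPM in KO and 95.4 and 91.0 CPM in WT. The replicates of each group lay close together and the groups did not overlap. Its log2 fold change was -0.47 (SE 0.11), with adjusted p-values of 0.327 in edgeR and 0.255 in DESeq2. ITGA3, the alpha3 chain of a laminin receptor, had 53.4 and 52.0 CPM in KO and 95.3 and 55.5 CPM in WT. WT replicate 1 alone was high, and the log2 fold change of -0.52 (SE 0.27; edgeR adjusted p = 0.521) was -0.07 without it. Without WT replicate 2, ITGA3 was -0.84 and was called (adjusted p = 0.0396 by edgeR and 0.0198 by DESeq2). ITGA6, partner of beta4 in hemidesmosomes, had 5.24 and 8.57 CPM in KO and 16.1 and 6.88 CPM in WT, with WT replicate 1 alone high and the groups overlapping.

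ITGA2, the alpha2 chain of a collagen receptor, had 32.4 and 31.1 CPM in KO and 36.4 and 30.6 CPM in WT, overlapping. Of the 11 alpha chains that reached the count minimum, ITGA9 was the 1 at 0 in both libraries of a group, with 0 and 0 counts in KO and 9 and 13 in WT. With 3 counts over the KO group as the floor, the WT mean of ITGA9 was 8.23-fold higher, and DESeq2 gave an adjusted p of 0.296. This bound leaves out the spread between the WT libraries. ITGA9-AS1, which overlaps it on the opposite strand, had 26 and 35 counts in KO and 6 and 12 in WT, and reads of the pair cannot be told apart unless strand was used. In all, 7 of the 56 genes share exon bases with another gene of at least 10 counts, 0 of them on the same strand.

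The beta chains gave no call with all 4 libraries, and 3 of the 4 had a positive log2 fold change (median 0.19). With 1.38% of all genes called by DESeq2, 0 of 4 is close to the background. ITGB4, the beta4 chain of hemidesmosomes, was the most abundant integrin chain per length of transcript. It had 265.0 and 239.7 CPM in KO and 224.2 and 221.5 CPM in WT, with a log2 fold change of 0.18 (SE 0.11; edgeR adjusted p = 0.568). ITGB5, a partner of alphaV, had 42.1 and 33.4 CPM in KO and 63.0 and 33.7 CPM in WT. As with ITGA3, WT replicate 1 alone was high, and the log2 fold change of -0.36 (SE 0.33) became 0.16 without it. ITGB1, the beta1 chain shared by most matrix-binding integrins, had 105 and 342 counts in KO and 32 and 128 in WT. Its replicates were more than 2-fold apart in each group, the groups overlapped, and the difference was 1.20 in log2 (SE 0.74; edgeR adjusted p = 0.556). These are low estimates for a chain that most adherent cells use, and ACTB was likewise low, at 600 and 1006 counts in KO and 426 and 507 in WT, so ITGB1 is uncertain. ITGB8 had 4.07 and 3.64 CPM in KO and 2.93 and 3.77 CPM in WT. The 2 other alphaV partners stayed under the minimum, ITGB3 with 0 and 0 counts in KO and 1 and 0 in WT, and ITGB6 with 2 and 2 in KO and 4 and 2 in WT. Of the integrin-binding proteins, ITGB1BP1, which binds the beta1 tail, had 202.9 and 196.6 CPM in KO and 184.3 and 188.8 CPM in WT.

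The remaining matrix proteins and receptors held 3 of the 5 genes that DESeq2 called, which is 30% of the 10 in this class, against 1.38% of all genes. The genes of this class were each named individually in the selection with earlier results known, so its shares are descriptions. 7 of the 10 had a positive and 3 a negative log2 fold change, with a median of 0.20. Both KO libraries exceeded both WT libraries for 5 (50%; AGRN, DDR2, SDC4, THBS1 and VCAN) and lay below them for 2 (20%; HSPG2 and ITGBL1), against 23.5% of all tested genes in each direction. With column totals the counts were again 5 and 2, against 32.4% of all tested genes above and 13.4% below. DDR2 had 60 and 38 counts in KO and 0 and 0 in WT, or 5.42 and 2.23 CPM in KO and 0 in both WT libraries. The KO libraries were more than 2-fold apart and neither WT library held a count. Set against 3 counts over the WT group, the KO mean of DDR2 was 32.1-fold higher (adjusted p = 0.254 by edgeR and 0.00117 by DESeq2). This bound covers the 0 in WT and leaves out the spread between the KO libraries. Without WT replicate 1 the DESeq2 adjusted p was 0.0983, and without KO replicate 1 DESeq2 gave none. DDR2 is best known from mesenchymal cells. Of the 9 fibroblast markers, PDGFRA, LUM, THY1, FAP and COL3A1 were at 0 in all 4 libraries. DCN and POSTN had 1 count each in WT replicate 2, and PDGFRB had 5 in WT replicate 1. COL1A1 had 7 and 21 counts in KO and 12 and 20 in WT. The source of the DDR2 reads was not tested. DDR1, of the same family as DDR2, was abundant, with 282.5 and 209.4 CPM in KO and 233.2 and 271.3 CPM in WT. Its groups overlapped (log2 fold change -0.04, SE 0.19, and 0.11 with column totals).

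VCAN, versican, a large chondroitin sulfate proteoglycan that binds hyaluronan, had 113.5 and 126.9 CPM in KO and 65.5 and 64.9 CPM in WT. The groups were well apart, at 120.2 ± 9.51 CPM in KO and 65.2 ± 0.452 CPM in WT (SD, n = 2 each), a 1.84-fold difference, or a log2 fold change of 0.88 (SE 0.12), with adjusted p-values of 0.246 in edgeR and 0.000438 in DESeq2. DESeq2 did not call it without KO replicate 1 (adjusted p = 0.364) or without KO replicate 2 (adjusted p = 0.979), while edgeR did without WT replicate 2 (adjusted p = 0.0358). ITGBL1, a secreted protein with EGF-like repeats like those of integrin beta chains, went the other way. It had 18 and 28 counts in KO and 146 and 146 in WT, or 1.63 and 1.64 CPM in KO and 11.3 and 12.0 CPM in WT. The replicates of each group lay close together and the groups far apart, with means of 1.64 ± 0.0124 CPM in KO and 11.6 ± 0.499 CPM in WT (SD, n = 2 each). This gave a log2 fold change of -2.82 (SE 0.28), with adjusted p-values of 0.170 in edgeR and 9.65e-06 in DESeq2. DESeq2 gave an adjusted p of 0.123 without WT replicate 1 and 0.0769 without KO replicate 2, and edgeR called it without WT replicate 2 (adjusted p = 0.0215).

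HSPG2, perlecan, had 22 and 27 counts in KO and 51 and 43 in WT, a log2 fold change of -1.06 (SE 0.37; edgeR adjusted p = 0.420). AGRN, the other heparan sulfate proteoglycan of the basement membrane, had 28.0 and 25.0 CPM in KO and 19.5 and 24.2 CPM in WT. SDC4, a syndecan of focal adhesions, had 275.5 and 284.3 CPM in KO and 255.2 and 258.6 CPM in WT (log2 fold change 0.12, SE 0.11; edgeR adjusted p = 0.659). THBS1, thrombospondin, had 30 and 34 counts in KO and 16 and 14 in WT, with a log2 fold change of 0.97 (SE 0.43; edgeR adjusted p = 0.484). NID1, NID2, SDC2, SPARC and TNC stayed under the count minimum.

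**Figure D4:**
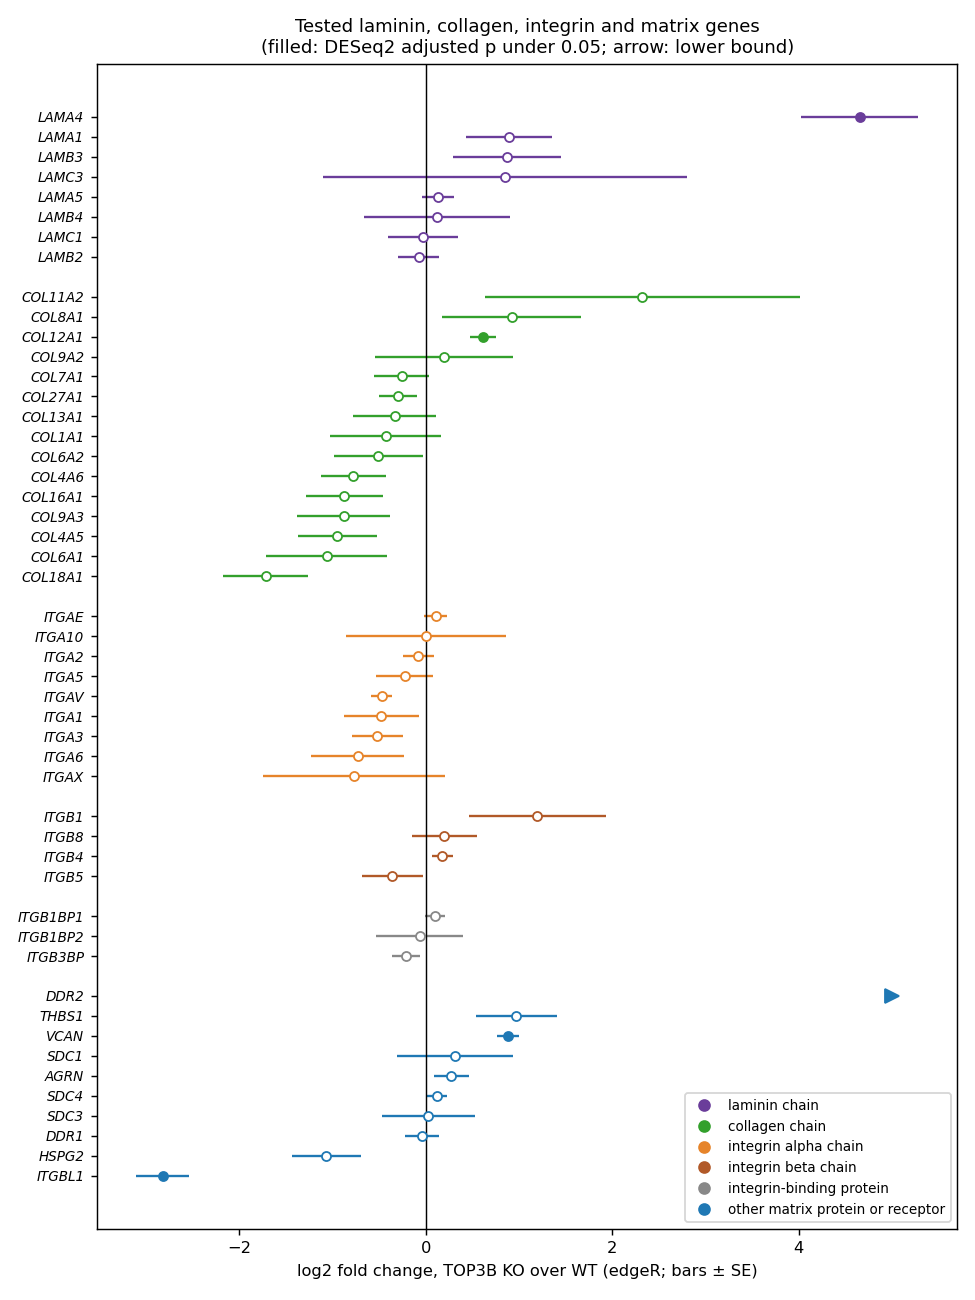
edgeR log2 fold change of KO over WT with its SE for tested genes, grouped by class, with filled symbols for genes at a DESeq2 adjusted p under 0.05 and an arrow for a lower bound. LAMA4 lies at 4.65 and ITGBL1 at -2.82, and 8 genes lie beyond 1 in either direction.

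Compared per kilobase of the median annotated transcript, the levels spanned a wide range between genes. SDC4 had 107.1 CPM per kb in KO and 98.3 in WT, ITGB1BP1 107.0 in KO and 99.9 in WT, and DDR1 64.7 in KO and 66.4 in WT. ITGB4 followed with 44.5 in KO and 39.3 in WT, then ITGB3BP with 32.1 in KO and 37.0 in WT, and COL12A1 with 31.4 in KO and 20.5 in WT. LAMA5, at 12.9 in KO and 11.7 in WT, led the laminins. LAMA4, at 1.55 in KO and 0.0608 in WT, was the fifth of the 10 laminins in KO and the lowest in WT. DDR2 stood at 1.24 in KO and at 0 in WT, both far under DDR1. The deposited RPKM were not used for such comparisons, because over 27 of these genes with at least 100 counts the length they imply was a median of 6.46 times the transcript length and 0.360 of the genomic span.

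**Figure D5:**
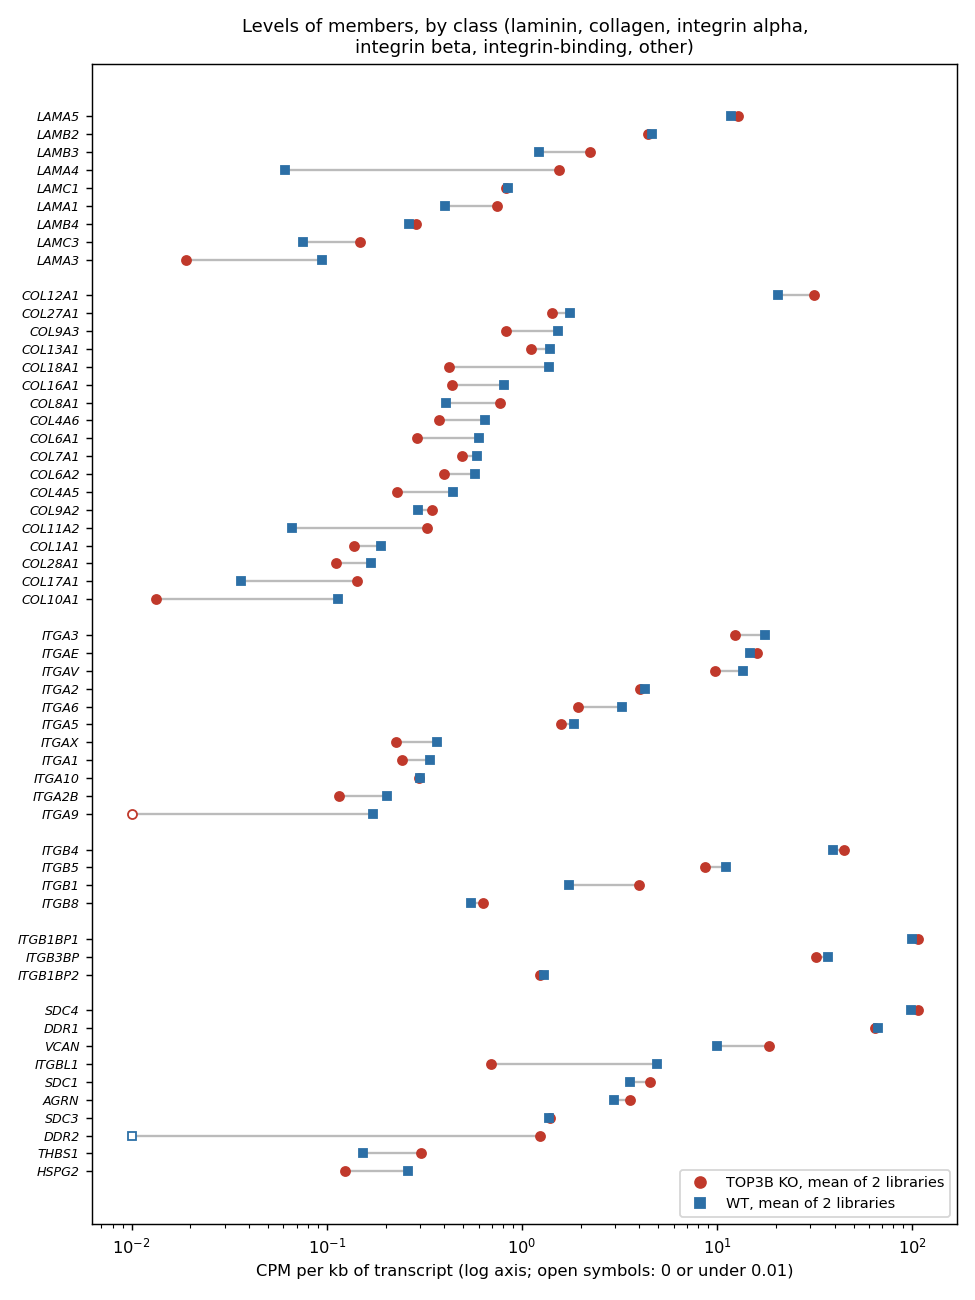
Mean CPM per kb of transcript in KO (circles) and WT (squares) for member genes on a log axis, grouped by class and ordered by level, with open symbols for values of 0. SDC4, ITGB1BP1 and DDR1 are the highest, and LAMA4 and DDR2 show the widest gaps with KO above WT.

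The genes that make, modify or read this matrix were described from 6 lists, and edgeR called 0 of their tested genes after adjustment. In the focal adhesion and integrin activation list 37 genes were tested, with a median log2 fold change of 0.08. At an unadjusted edgeR p under 0.05, 2 were higher and 0 lower, which is 5.41% against 11.2% of all tested genes, and DESeq2 called 0. The smallest p was that of VCL, vinculin, which links talin to actin, at 268.7 and 241.5 CPM in KO and 115.9 and 182.2 CPM in WT (log2 fold change 0.78, SE 0.24; DESeq2 adjusted p = 0.0937). Of 7 tested hemidesmosome genes, 6 of which are among the 56, 2 were higher at an unadjusted p under 0.05 (28.6%), PLEC among them, with a median of 0.18 and 0 called by DESeq2. PLEC, plectin, which ties alpha6 beta4 to keratin filaments, had 187.2 and 147.1 CPM in KO and 102.7 and 130.3 CPM in WT.

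Among 22 tested genes of collagen modification, folding and secretion, the median was -0.23, with 2 higher and 2 lower at an unadjusted p under 0.05 (18.2%, against 11.2% of all tested genes). PLOD2, the lysyl hydroxylase of collagen telopeptides, was the 1 gene of the 6 lists, outside the 56, that DESeq2 called. DESeq2 called 1.38% of all genes. With 37, 7, 22, 22, 19 and 11 genes tested in the 6 lists, 1 call was not above that share. PLOD2 had 93.5 and 82.9 CPM in KO and 157.9 and 136.9 CPM in WT, without overlap. Its log2 fold change was -0.74 (SE 0.14), with adjusted p-values of 0.260 in edgeR and 0.0139 in DESeq2. PLOD1, which hydroxylates lysines of the helix, was the other lower gene, and the collagen chaperones SERPINH1 and FKBP10 were the 2 higher ones. Their log2 fold changes were -0.88 (SE 0.25) for PLOD1, 0.46 (SE 0.16) for SERPINH1 and 0.48 (SE 0.15) for FKBP10. The 22 tested crosslinking and remodelling enzymes had a median of -0.18, with 1 higher and 1 lower at that p (9.09%), and the smallest p was that of ADAMTS6, a secreted metalloprotease with 3 and 0 counts in KO and 27 and 25 in WT. The 19 tested glycoproteins and proteoglycans outside the 56 had a median of -0.20, with 1 higher and 2 lower (15.8%). LTBP3, which holds latent TGF-beta in the matrix, had the smallest p there, at 37.6 and 39.5 CPM in KO and 21.7 and 25.4 CPM in WT (log2 fold change 0.71, SE 0.16; DESeq2 adjusted p = 0.166). The 11 tested genes of other laminin and collagen receptors had a median of -0.07, with 0 higher and 1 lower (9.09%). That 1 was POMGNT1, which adds sugars that let dystroglycan bind laminin, at 3.52 and 4.81 CPM in KO and 9.17 and 8.19 CPM in WT (log2 fold change -1.05, SE 0.30).

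The genes next to the 5 that DESeq2 called were also read, taking the 5 nearest tested genes on each side in GENCODE 29. Of the 10 neighbours of each, DESeq2 called 0, against 1.38% of all genes. Among 10 genes a count of 0 is close to that share. Their median log2 fold changes were -0.05 for LAMA4, -0.18 for DDR2, -0.22 for VCAN, 0.02 for COL12A1 and -0.20 for ITGBL1. Among them, SLC17A5 near COL12A1 had a log2 fold change of -2.58, with a DESeq2 adjusted p of 0.709.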

How the data were processed

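RNA-seq of 4 libraries was used, 2 of TOP3B KO and 2 of WT HCT116, grouped by their titles. Per the labels' protocols, the RNA had integrity numbers over 8.0, was depleted of ribosomal RNA, and gave libraries of a stranded kit that were read as 150 bp pairs. The authors deposited estimated counts per gene symbol, rounded to whole numbers, and RPKM of the same genes. The submitters' processing notes name Salmon 1.10.1 and hg19. No source used here gives the annotation or the use of strand. The deposited RPKM served only for the check of gene lengths.

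The main test was edgeR 4.0.16 (quasi-likelihood F-test, TMM factors, filterByExpr, genotype alone, R 4.3.3) over 12269 genes, with Benjamini-Hochberg adjustment over all of them and a threshold of 0.05. An SE is the log2 fold change divided by the square root of F. DESeq2 1.42.0 with its defaults gave an adjusted p for 13258 genes, and limma-voom (limma 3.58.1), other scalings, no filter, a replicate block and leaving out each library were further alternatives. A fold against a group at 0 set the mean of the other group against 3 counts over the group at 0. Class counts under other scalings were added after seeing the data. GENCODE 29 gave chromosomes, transcript lengths and exon overlaps, matching all 56 members by symbol, and RefSeq gave promoter windows for 44 of them.

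The members and lists were chosen with earlier results of these data known. Genes were named if called by either tool, at an unadjusted edgeR p under 0.05, at 0 in a whole group with at least 10 counts in a library of the other, or among the 2 highest of their class. LAMB1 and LAMC1 were named as partners of LAMA4, and each list gave its called genes or its smallest p. Other genes were named for their role after values were seen. Some genes that the rule names are not reported here. 1 pseudogene name was left out.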

Additional observations from a re-analysis of the deposited data

How the results depend on the processing

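The count of genes that edgeR called over all genes was 1 with TMM. It was 42 with column totals (15 higher and 27 lower), 34 without the filter on low counts, and 183 by DESeq2. When 1 library was left out it was 0 to 575 in edgeR (575 without WT replicate 2, and 0 without either KO library), and in DESeq2 86 and 721 with WT replicates 1 and 2 left out in turn, and 75 and 72 with the KO replicates. For the matrix and adhesion genes the edgeR count of 0 became 1 with column totals (LAMA4), 2 without the filter (ITGBL1 and LAMA4) and 5 by DESeq2. When 1 library was left out, it ran from 0 to 5 in edgeR and in DESeq2 was 3 and 7 with WT replicates 1 and 2 left out in turn, and 2 and 1 with the KO replicates. The highest values came without WT replicate 2, when ITGA3 was called by both tools, and the lowest DESeq2 value came without KO replicate 2, when DDR2 alone was called. With 1 library in a group, that library was assumed to vary like the others.

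The median log2 fold change of the tested members was 0.11 with column totals, a scaling that moved the median of all genes to 0.14, and ran from -0.12 to 0.01 when a library was left out. The members with both KO libraries below both WT libraries numbered 8 with column totals in place of 13, and those above 14 in place of 13, while the shares of all tested genes became 13.4% below and 32.4% above, in place of 23.5% each. The replicate numbers are not said to mark a shared culture: deviations of same-numbered libraries had r = 0.0637 over all tested genes and 0.295 over the tested members, and with the replicate block edgeR called 1 gene overall and 0 members, with a median of -0.06. The cause of these shifts was not tested.

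Of 252 alternative fits of the 18 named members with a fit, 20 turned the sign, in DDR1, ITGB5, LAMA5, LAMB2 and LAMC1. With column totals DDR1 was 0.110, LAMB2 0.0760 and LAMC1 0.164, and LAMC1 was 0.0212 with the replicate block. When 1 library was left out, edgeR gave DDR1 -0.267 to 0.164, ITGB5 -0.727 to 0.164, LAMA5 -0.0403 to 0.290, LAMB2 -0.332 to 0.146 and LAMC1 -0.365 to 0.432. In DESeq2, DDR1 became 0.0836 (WT replicate 2 left out) and 0.171 (KO replicate 2 left out), ITGB5 0.167 without WT replicate 1, and LAMA5 -0.0246 without KO replicate 1. In the same tool LAMB2 became 0.0387 (WT replicate 2 left out) and 0.162 (KO replicate 1), and LAMC1 0.437 (WT replicate 1) and 0.108 (KO replicate 2).

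Counts near the minimum, estimates that divide shared reads, and 2 libraries a group limit most single values.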
